A study of Arabidopsis thaliana with 8 samples.

Results

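The circadian clock genes of Arabidopsis thaliana were followed through the accessible chromatin regions (ACRs) that lie at 10 of them, namely LHY (AT1G01060), CCA1 (AT2G46830), PRR9 (AT2G46790), PRR7 (AT5G02810), PRR5 (AT5G24470), TOC1 (AT5G61380), ELF3 (AT2G25930), ELF4 (AT2G40080), LUX (AT3G46640, PCL1 in the annotation) and GI (AT1G22770). An ACR belonged to a gene when its summit lay between 1500 bp upstream of the annotated gene start and 500 bp downstream of its end. This rule uses position alone and found 22 of the 30223 ACRs, of which 0 lay in the windows of more than 1 of the genes. The smallest p-values over the stages were at ELF4 and GI. At GI, the distal promoter ACR rose by 0.57 and the start-site ACR by 1.08 on the log2 scale between dry seeds and 6 h of light. At ELF4, the promoter ACR was lower at 6 h of light already and ended 1.09 lower on the log2 scale in seedlings than in dry seeds. The promoter ACRs of LHY, CCA1, PRR9 and TOC1 were open at all stages, and with the deposited scaling they were not called as changed, although with 1 scaling factor for each library the first 3 were called lower in seedlings than in dry seeds.

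The plant clock is a loop of transcription factors that switch each other off in turn over the day. The morning MYB factors CCA1 and LHY repress evening genes through a short promoter sequence called the evening element, the pseudo-response regulators PRR9, PRR7, PRR5 and TOC1 are made one after another and repress CCA1 and LHY, and ELF3, ELF4 and LUX form the evening complex, which represses PRR9 and other genes at night. GI, a large protein of the late day, stabilizes the F-box protein ZTL that removes TOC1 and PRR5, and also acts in photoperiodic flowering. In seeds, light and the end of cold imbibition are among the cues that set the phase of the clock.

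ATAC-seq, in which the transposase Tn5 cuts and tags DNA that is not wrapped in nucleosomes, was carried out on Col-0 at 4 stages with 2 libraries each. Dry seeds are called DS, and L6, L26 and L57 had 6 h, 26 h and 57 h of continuous light after imbibition in the cold and dark. The embryos of germinating seeds were pressed out of their coats, while the handling of dry seeds and of seedlings is not given in the labels, so that a difference in tissue and a difference in chromatin cannot be told apart where DS or L57 is compared. The stages also differ in the hours since the move to light, so stage and time of the clock cannot be told apart either, and with bulk nuclei a smaller share of open cells cannot be told apart from a less open site in every cell. Nothing says that the libraries of a stage came from separate cultures, so a p-value here compares a difference with a spread that may be technical only.

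Library totals over all ACRs ran from 3734831 counts in DS down to 1534759 in L57, and the 22 clock ACRs held between 14 and 1177 counts in a library. Of 7 dry seed marker genes (storage proteins, oleosin and late embryogenesis genes), all had an ACR, and their summed CPM (read counts scaled to library size) fell from 1211 to 1258 in DS to 505 to 508 in L57, with 5 of 7 called lower. Of 7 green seedling marker genes (photosynthesis), the summed CPM went from 348 to 358 in DS to 647 to 676 in L57, with 5 of 7 called higher. Of 9 seed coat genes, 7 had an ACR, whose summed CPM was 160 to 167 in DS, 185 to 187 in L6, 197 to 199 in L26 and 164 to 172 in L57. Of 7 endosperm genes, 3 had an ACR, whose summed CPM was 117 to 122 in DS, 80.2 to 81.6 in L6, 91.3 to 105 in L26 and 94.0 to 116.6 in L57. Of the 7 seed coat genes 1 was called higher and 1 lower in L6 versus DS. In that comparison 0 were called higher and 2 lower of the 3 endosperm genes, and 0 and 5 of the 7 dry seed genes. Of the 7 green seedling genes 2 were called higher and 0 lower. Of all ACRs 17.6% were called higher and 14.3% lower. The part of these lists in the differences at clock genes was not tested.

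The DNA at the summits is shown first, since several clock proteins are known to bind the promoters of other clock genes. Both strands were searched for short sequences up to 150 bp either side of each summit, a window of 301 bp. The evening element, AAATATCT, was present in 6 of the 22 ACRs, at GI, ELF4, LUX, TOC1 and in both upstream ACRs of PRR5, with 11 matches in all, while 3.06% of all ACRs held it. Among the ACRs with the highest mean CPM of their gene, called leading ACRs here, 5 of 10 held an evening element, beside 3.97% of the 3023 ACRs in the top 10% of mean CPM. The related CCA1-binding site AAAAATCT was found in 1 of the 22, in the PRR5 ACR at -254 bp, and in 3.64% of all ACRs.

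The G-box, CACGTG, bound by bZIP and bHLH factors, was present in 5 of the 22, all leading ACRs (CCA1, PRR9, PRR7, PRR5 at -1316 bp and LUX), beside 12.2% of all ACRs and 29.6% of the top 10%. Each of these 6 G-box matches shared letters with a match to the core of the abscisic acid response element (ABRE, ACGTGTC or ACGTGGC). The ABRE was present in 10 of 22 and 7 of 10 leading ACRs, beside 11.4% of all and 27.1% of the top 10%. The site of LUX, GATTCG or GATACG, was present in 7 of 22 and in 4 leading ACRs (GI, ELF4, LUX and PRR9). It was in 16.1% of all ACRs and 18.7% of the top 10%. Sites of TCP factors, TGGGCC or TGGTCC, were in 11 of 22 (31.4% of all and 46.9% of the top 10%). HUD sites, CACATG, were in 4 (18% and 21.2%) and GT1 sites, GGTTAA, in 5 (15.3% and 16.9%). The telo-box, AAACCCTA, was in 0 (4.71% and 4.17%). Matches are descriptions of the letters and do not show binding.

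The ACR of GI is printed because it had the highest mean CPM of the clock ACRs and was called higher in L6 than in DS under all 5 scalings described further on. The 300 bases around its summit (TAIR10 chr1:8060680-8060979, from -1071 to -772 bp relative to the gene start, in the direction of the gene) hold, in capitals and in this order, a LUX site (read on the other strand), an ABRE (other strand) and the evening element.
GI promoter: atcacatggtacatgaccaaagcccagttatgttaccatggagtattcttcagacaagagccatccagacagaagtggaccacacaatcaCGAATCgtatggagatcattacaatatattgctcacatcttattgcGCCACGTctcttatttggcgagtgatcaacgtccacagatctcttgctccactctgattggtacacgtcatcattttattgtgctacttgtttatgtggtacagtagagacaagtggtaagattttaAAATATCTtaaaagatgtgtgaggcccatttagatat
The CCA1 summit is shown as 1 of the 3 leading ACRs with a G-box and no evening element (CCA1, PRR9 and PRR7), and its 300 bases (chr2:19245219-19245518, from -372 to -73 bp) carry the G-box with an ABRE on either strand, in capitals.
CCA1 promoter: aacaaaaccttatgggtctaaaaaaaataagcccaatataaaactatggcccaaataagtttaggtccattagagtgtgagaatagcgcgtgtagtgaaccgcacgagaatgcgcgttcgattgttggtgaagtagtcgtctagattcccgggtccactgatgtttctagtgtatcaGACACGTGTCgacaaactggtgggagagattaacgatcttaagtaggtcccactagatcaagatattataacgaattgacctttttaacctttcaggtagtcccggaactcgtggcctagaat
Evening elements of the other genes are given with their surroundings, 60 bases each in gene direction and 1 of the 2 matches for each PRR5 ACR, with evening elements and ABREs on either strand in capitals.
ELF4, chr2:16735165-16735224: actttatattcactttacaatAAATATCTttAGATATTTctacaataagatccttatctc
TOC1, chr5:24674786-24674845: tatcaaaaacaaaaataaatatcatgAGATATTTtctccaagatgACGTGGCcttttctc
LUX, chr3:17182608-17182667: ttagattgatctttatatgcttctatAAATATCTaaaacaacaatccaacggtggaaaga
PRR5 at -254 bp, chr5:8358805-8358864: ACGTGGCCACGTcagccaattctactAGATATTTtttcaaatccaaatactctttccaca
PRR5 at -1316 bp, chr5:8359791-8359850: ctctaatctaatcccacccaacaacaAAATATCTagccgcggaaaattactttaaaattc
ELF4 held 4 evening elements in 2 pairs at either edge of the window, and the pair shown is inverted with a spacer of tt. The G-boxes with their ABREs, in capitals, are given for the other G-box genes.
PRR9, chr2:19232342-19232461: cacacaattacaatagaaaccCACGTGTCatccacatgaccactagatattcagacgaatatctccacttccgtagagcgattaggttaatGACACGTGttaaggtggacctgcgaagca
PRR7, chr5:642199-642258: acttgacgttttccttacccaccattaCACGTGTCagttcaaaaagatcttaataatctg
LUX, chr3:17182822-17182881: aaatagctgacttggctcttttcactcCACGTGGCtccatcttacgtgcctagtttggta
PRR5 at -1316 bp, chr5:8359870-8359929: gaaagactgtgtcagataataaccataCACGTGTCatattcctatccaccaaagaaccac
PRR9 had 2 G-boxes, and its stretch shows both.

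**Figure D1:**
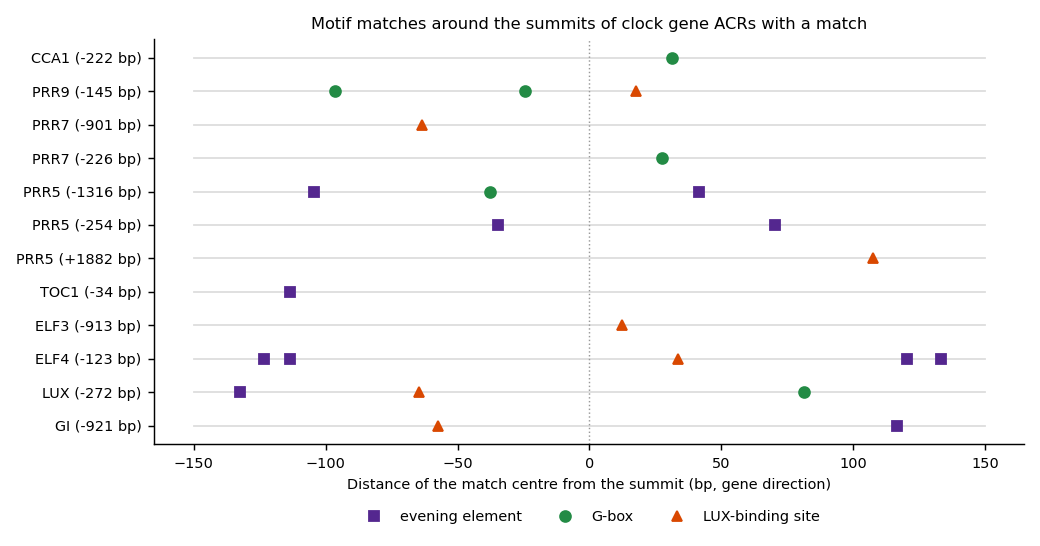
Evening element (squares), G-box (circles) and LUX-binding site (triangles) matches in the clock gene ACRs that have one, by the distance of the match centre from the summit in bp, in gene direction. ELF4 has 4 evening elements at the 2 edges of the window, and the CCA1, PRR9 and PRR7 promoters have a G-box but no evening element.

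Most of the clock ACRs were upstream of the genes. Of the 22 summits, 13 were upstream (8 of them within 300 bp of the gene start), 1 was in a 5' UTR, 3 in coding exons, 1 in an intron, 1 in a 3' UTR and 3 downstream of the gene. LHY, TOC1, ELF4, PRR7 and PRR9 had 2 ACRs each, PRR5 and GI had 3, ELF3 had 4, and CCA1 and LUX had only 1. The median of mean CPM was 45.9 over the 22 ACRs and 23.3 over all ACRs. Of the 22, 8 were above 65.5 CPM, the level that 10% of all ACRs exceed. These 8 are leading ACRs, which were chosen by their level. Scaled to their length, the mean level was 324.9 CPM per kb at GI, 241.6 at LHY, 238.3 at LUX, 206.9 at CCA1, 180.3 at PRR7, 172.0 at PRR5, 135.8 at PRR9, 101.4 at TOC1, 76.7 at ELF4 and 38.3 at ELF3. ELF3 had no ACR within 300 bp of its annotated start, and its leading ACR lay in a coding exon. Distances are from the gene start in RefSeq, and terms such as distal promoter and start-site ACR at GI, and the position of the ELF3 ACRs, depend on that start, which another annotation may place elsewhere.

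**Figure D2:**
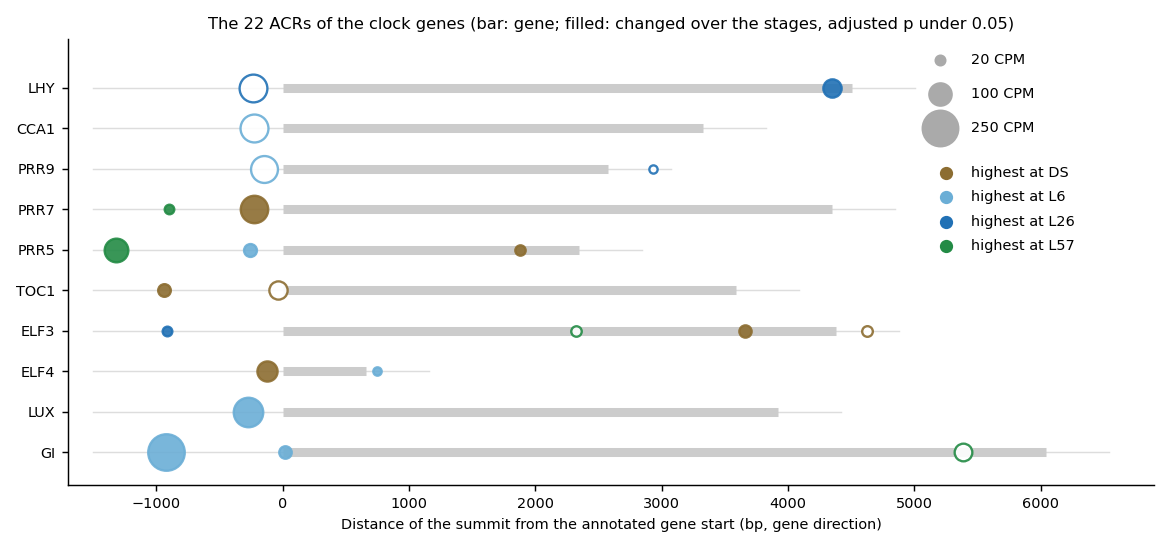
The 22 ACRs by the distance of their summit from the annotated gene start (bp, gene direction), with the gene as a grey bar. The area of a circle is the mean CPM, its colour the stage with the highest mean, and filled circles changed over the 4 stages (14 of 22). The largest circles lie upstream of the genes, and the one at GI is the largest.

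How the libraries are scaled decides part of the answer for such accessible sites. The deposited CPM use trended offsets, which scale ACRs of different abundance differently, whereas TMM factors, DESeq2 size factors and total counts use 1 factor for each library. For the top 10% of mean CPM, trended offsets added a median of 0.31 to the log2 fold change of L57 versus DS relative to TMM factors, 0.24 for L26 versus L6 and 0.23 for L57 versus L26, and took 0.15 from L6 versus DS. With TMM factors 45.7% of the top 10% was called lower in L57 than in DS, and with trended offsets 24.8%. Total counts also moved the median of all ACRs for L26 versus L6 to 0.10, from -0.01 with trended offsets. Log2 fold changes are therefore given with trended offsets. Directions are set beside the range over 5 scalings or beside single scalings that gave another call. The 5 are trended, trended with a correction for GC content, TMM, DESeq2 size factors and total counts.

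Over the 4 stages, 14 of 22 clock ACRs changed (63.6%, edgeR quasi-likelihood test, adjusted p under 0.05), and 56.6% of all ACRs did. With trended offsets the clock genes were thus close to the genome as a whole. The count was 11 with GC-corrected offsets (50.3% of all ACRs). It was 17 with TMM factors (59.3% of all), DESeq2 size factors (59.1%) and total counts (61%). The DESeq2 test over the 4 stages called 11 (36% of all). In L6 versus DS, 6 of 22 were called higher (17.6% of all ACRs) and 3 lower (14.3%). In L26 versus L6, 0 were called higher (8.71% of all) and 2 lower (7.91%). With only 22 ACRs, a count of 0 is not set apart from that share. At an unadjusted p under 0.05 the count of higher ACRs in that step was 0 as well. The share of all ACRs at that threshold was not counted. The Wald test of DESeq2 called 0 of the clock ACRs higher, beside 1082 of all 30223 ACRs. In L57 versus L26, 1 was called higher (7.53%) and 1 lower (6.19%). In L57 versus DS, 3 were called higher (17%) and 3 lower (12.2%). The median size of the log2 fold change was 0.44 for the clock ACRs and 0.37 for all ACRs in L6 versus DS, and 0.19 against 0.38 in L57 versus DS. With TMM factors these were 0.44 against 0.39 and 0.29 against 0.38. For L26 versus L6 the sizes were 0.21 against 0.29 with trended offsets and 0.37 against 0.30 with TMM factors. For L57 versus L26 they were 0.26 against 0.33 and, with TMM factors, 0.39 against 0.34. The sizes were not matched for mean CPM, which is higher at the clock ACRs.

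With TMM factors the count of lower calls grew, to 8 of 22 in L26 versus L6 (9.97% of all ACRs), 4 in L57 versus L26 (8.53%) and 8 in L57 versus DS (13.9%). The leading ACRs made up 7, 4 and 7 of these, and 8 of the 10 leading ACRs are in the top 10% of mean CPM, of which 39.9%, 25.9% and 45.7% were called lower in these comparisons. In L6 versus DS the lower calls stayed at 3 (15.7% of all) and the higher calls went from 6 to 8 (18.5%). The higher calls were 0 in L26 versus L6 (9.61%), and went from 1 to 0 in L57 versus L26 (7%) and from 3 to 0 in L57 versus DS (16.1%). The calls made in the same direction under all 5 scalings were 5 in L6 versus DS. These were higher at GI at -921 bp, GI at 20 bp, ELF3 at -913 bp and ELF4 at 744 bp, and lower at ELF4 at -123 bp. In L26 versus L6 there were 2 (lower at LUX and at GI at 20 bp), and in L57 versus L26 0. In L57 versus DS there were 2 (lower at ELF4 at -123 bp and at PRR7 at -226 bp). The share of all ACRs called under all 5 scalings was not counted, so these counts cannot be read as many or few.

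**Figure D3:**
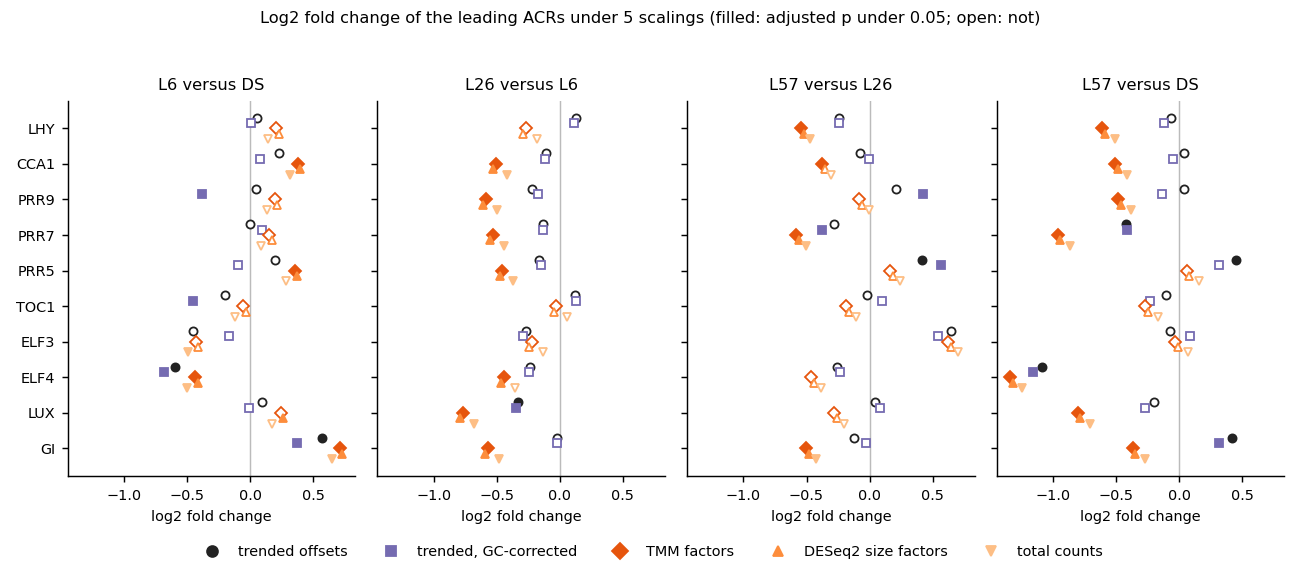
Log2 fold change of the leading ACR of each gene (x axis) in the 4 comparisons, under 5 scalings, filled where the adjusted p is under 0.05. ELF4 lies left of 0 in L6 versus DS and L57 versus DS under each scaling, GI lies right of 0 in L6 versus DS, and in L57 versus DS GI is at 0.42 with trended offsets and -0.37 with TMM factors.

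LHY and CCA1, the morning repressors, had strongly accessible promoters in the dry seed already. The LHY promoter ACR (summit at -234 bp, chr1:37794-38405) was at 151.4 and 134.5 CPM in DS, 165.0 and 131.4 in L6, 159.1 and 164.0 in L26 and 158.5 and 118.9 in L57. The L26 libraries lay above those of DS and L57, the L6 libraries overlapped all others, and the log2 difference of L57 from DS was -0.06 (95% interval -0.30 to 0.18, adjusted p = 0.75). With TMM factors the same difference was -0.61 (adjusted p = 6.4e-05). The CCA1 promoter ACR (at -222 bp, chr2:19244986-19245707) was at 147.6 and 132.1 CPM in DS, 165.2 and 161.9 in L6, 162.8 and 140.9 in L26 and 124.7 and 159.8 in L57. Its libraries of L6 were above those of DS, by 0.23 on the log2 scale (interval 0.03 to 0.42), which was not called (adjusted p = 0.071) but was with TMM factors (0.38, adjusted p = 0.0052). L57 differed from DS by 0.04 (interval -0.20 to 0.27), and by -0.51 with TMM factors (adjusted p = 0.00091).

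The other ACR of LHY lay in its 3' UTR (at 4348 bp), 352 bp from the start of the neighbouring gene PPa1, a soluble pyrophosphatase, and may belong to either. It was at 46.7 to 51.2 CPM in DS and at 64.9 to 76.3 in the other libraries, with no overlap. It was higher by 0.42 ± 0.15 (SE) in L6 than in DS (adjusted p = 0.022) and by 0.47 ± 0.17 in L57 (adjusted p = 0.026). With GC-corrected offsets the first difference was 0.03 (adjusted p = 0.91), with TMM factors the second was 0.31 (adjusted p = 0.18), and each call was lost in 4 of the 8 fits that left out 1 library, with adjusted p up to 0.21 and 0.16, both without DS replicate 2.

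**Figure D4:**
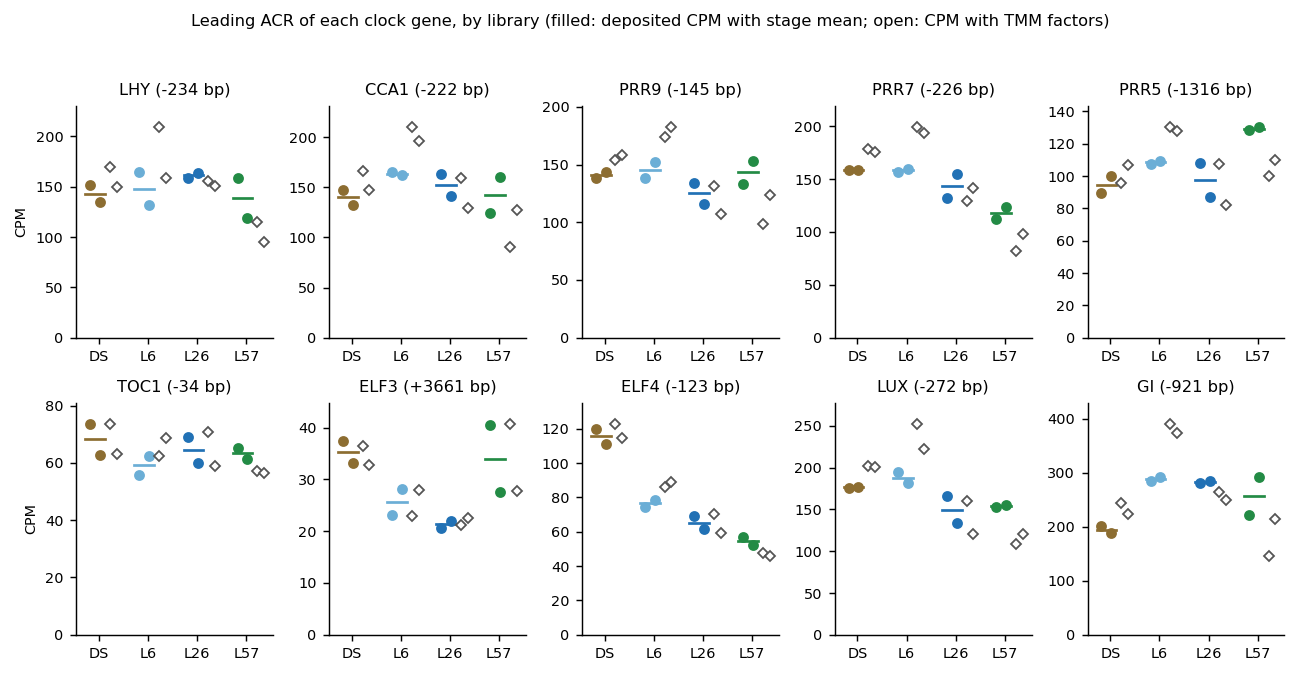
CPM of the leading ACR of each clock gene in the 8 libraries (filled points, deposited CPM with the stage mean as a line) and the same counts with TMM factors (open points). The ELF4 libraries fall from 120.0 and 111.3 CPM in DS to 56.8 and 52.1 in L57, and at LHY, CCA1 and PRR9 the filled points overlap between DS and L57 while the open points are lower in L57.

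Of the pseudo-response regulators, PRR9 acts first, in the morning. Its promoter ACR (at -145 bp, chr2:19231730-19232750) was at 138.0 and 143.6 CPM in DS, 138.3 and 151.9 in L6, 134.4 and 115.9 in L26 and 133.4 and 153.3 in L57. The L26 libraries lay below those of DS and L6, while DS, L6 and L57 overlapped. L26 versus L6 was at -0.22 (adjusted p = 0.19), and at -0.59 with TMM factors (adjusted p = 7.9e-05). L57 differed from DS by 0.03 (interval -0.20 to 0.27). The sign changed with the scaling, since TMM factors gave -0.48 (adjusted p = 0.0017), and in L6 versus DS trended offsets gave 0.04 while GC-corrected offsets gave -0.38 (adjusted p = 0.0019). Its other ACR lay downstream, inside the zinc transporter gene ZAT, at 8.8 to 17.5 CPM over the 8 libraries, and was not called in any of the 4 comparisons or over the stages (adjusted p = 0.076).

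PRR7, the regulator that follows PRR9, had a promoter ACR (at -226 bp, chr5:641915-642716) with near-equal values in DS and L6. It was at 158.8 and 158.2 CPM in DS, 157.2 and 159.6 in L6, 132.5 and 154.6 in L26 and 112.4 and 123.3 in L57. Both seedling libraries lay below all others, and L57 was lower than DS by -0.42 ± 0.12 on the log2 scale (adjusted p = 0.0037), with values from -0.96 to -0.42 over the 5 scalings, all called. Without L57 replicate 1 the difference was -0.31 (adjusted p = 0.11). The annotated start of a tRNA gene, AT5G02815, lies 225 bp from this summit. The ACR at -901 bp, inside the neighbouring gene RHL2, was at 20.8 to 22.3 CPM in DS and 10.6 to 15.9 in L6, lower by -0.69 ± 0.26 (adjusted p = 0.034). It was at -0.38 (adjusted p = 0.31) with GC-corrected offsets and lost its call when DS replicate 1, DS replicate 2 or L6 replicate 1 was left out (adjusted p = 0.15, 0.073 and 0.34).

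PRR5, which peaks later in the day than PRR7, had its most accessible site far from the gene. That ACR (at -1316 bp, chr5:8359620-8360244) lies 26 bp from the start of, and inside, the long non-coding RNA gene AT5G03755, so it may serve that gene. It was at 89.4 and 99.9 CPM in DS, 107.8 and 109.3 in L6, 108.0 and 86.9 in L26 and 128.4 and 130.3 in L57. The seedling libraries were above all others, by 0.45 ± 0.13 against DS (adjusted p = 0.0044) and 0.42 ± 0.14 against L26 (adjusted p = 0.031). With TMM factors these differences were 0.06 (adjusted p = 0.80) and 0.16 (adjusted p = 0.49). Without DS replicate 1 the difference from DS was 0.34 (adjusted p = 0.12), and that from L26 was lost without L26 replicate 2 (0.26, adjusted p = 0.33) or either L57 replicate (adjusted p = 0.097 and 0.14).

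The nearer ACR of PRR5, at -254 bp, was at 27.9 and 28.0 CPM in DS, 39.8 and 47.2 in L6, 34.3 and 30.1 in L26 and 19.5 and 29.3 in L57. It was higher at L6 than in DS by 0.64 ± 0.19 (adjusted p = 0.0061). With GC-corrected offsets this was 0.30 (adjusted p = 0.26), and the call was lost in 3 of the 8 fits that left out 1 library, farthest without L6 replicate 2 (0.54, adjusted p = 0.10). The ACR in a coding exon of PRR5 went the other way, from 24.5 and 25.8 CPM in DS to 16.9 and 13.4 in L6, lower by -0.74 ± 0.25 (adjusted p = 0.015). It was at -0.46 (adjusted p = 0.18) with GC-corrected offsets, and not called without DS replicate 2 (adjusted p = 0.080) or L6 replicate 2 (-0.58, adjusted p = 0.17).

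TOC1, the evening member of the family, had an ACR at its start. This ACR (at -34 bp, chr5:24674574-24675203) was at 73.6 and 62.8 CPM in DS, 55.8 and 62.6 in L6, 69.1 and 60.1 in L26 and 65.3 and 61.5 in L57. Both L6 libraries lay below both of DS, and every other pair of stages overlapped. L57 differed from DS by -0.11 (interval -0.44 to 0.22), or -0.27 with TMM factors (adjusted p = 0.24). Its range over the stages ranked low among all ACRs under both scalings, at percentile 2.40 with trended offsets and 4.71 with TMM factors. GC-corrected offsets alone made a call, with L6 lower than DS by -0.46 (adjusted p = 0.011). The upstream ACR of TOC1 (at -940 bp), which lies 366 bp from the start of AT5G61370, was at 41.1 and 41.2 CPM in DS, 34.2 and 30.8 in L6, 24.4 and 22.5 in L26 and 22.5 and 29.7 in L57. The DS libraries were above all others, and L57 was lower by -0.64 ± 0.23 (adjusted p = 0.021). Total counts gave -0.51 (adjusted p = 0.077), and the call was lost without DS replicate 1 (adjusted p = 0.057), DS replicate 2 (adjusted p = 0.061) or L57 replicate 1 (-0.46, adjusted p = 0.24).

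The evening complex held the largest decline of the 22 ACRs in L57 versus DS. The ELF4 promoter ACR (at -123 bp, chr2:16734459-16735475) was at 120.0 and 111.3 CPM in DS, 74.4 and 78.7 in L6, 69.2 and 61.4 in L26 and 56.8 and 52.1 in L57. The libraries of each stage lay below those of the stage before. L6 was lower than DS by -0.59 ± 0.12 (adjusted p = 4.4e-05), from -0.69 to -0.42 over the 5 scalings, and L57 was lower than DS by -1.09 ± 0.16 (adjusted p = 1.9e-09), from -1.34 to -1.09. Both kept their call in each of the 8 fits that left out 1 library, and the first was not called by the Wald test of DESeq2 (-0.42, adjusted p = 0.066). The separate steps from L6 to L26 (-0.23, adjusted p = 0.30) and from L26 to L57 (-0.26, adjusted p = 0.35) were not called with trended offsets. The first of them was called with TMM factors (-0.44, adjusted p = 0.026) and DESeq2 size factors (-0.46, adjusted p = 0.019), and the second with none of the 5 scalings.

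Downstream of ELF4, a small ACR (at 744 bp, chr2:16734016-16734381) was at 11.0 and 3.7 CPM in DS, 16.0 and 21.6 in L6, 18.0 and 11.7 in L26 and 15.4 and 10.8 in L57. It was higher by 1.36 ± 0.30 in L6 than in DS (adjusted p = 1.3e-04), opposite to the promoter ACR, and by 0.86 to 1.36 over the 5 scalings. The size rests on DS replicate 2, with 14 counts, since without that library the difference was 0.76 (adjusted p = 0.095).

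LUX, the DNA-binding member of the complex, had a single ACR (at -272 bp, chr3:17182362-17183062), whose summit is 210 bp from the start of the divergent gene AT3G46630 and which may serve both. It was at 175.8 and 177.4 CPM in DS, 195.0 and 181.3 in L6, 165.6 and 133.8 in L26 and 152.7 and 155.1 in L57. The L26 libraries lay below those of L6, by -0.34 ± 0.10 on the log2 scale (adjusted p = 0.014), and by up to -0.79 over the 5 scalings, all called. Without L26 replicate 2 the difference was -0.16 (adjusted p = 0.49), and without L6 replicate 1 it was -0.32 (adjusted p = 0.11). L57 was at -0.20 against DS (interval -0.42 to 0.02, adjusted p = 0.19) and at -0.81 with TMM factors (adjusted p = 1.9e-08).

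ELF3, the scaffold of the complex, had its leading ACR in a coding exon (at 3661 bp, chr2:11062419-11063177). It was at 37.4 and 33.2 CPM in DS, 23.2 and 28.2 in L6, 20.7 and 22.0 in L26 and 40.4 and 27.5 in L57. The L6 and L26 libraries lay below those of DS, and the ACR was called over the 4 stages (adjusted p = 0.015) but in none of the 4 comparisons, with -0.45 in L6 versus DS (adjusted p = 0.078) and 0.64 in L57 versus L26 (adjusted p = 0.082). The call over the stages was lost without DS replicate 1 (adjusted p = 0.079) or L26 replicate 1 (adjusted p = 0.056).

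The upstream ACR of ELF3 (at -913 bp) had a course of its own. It was at 10.6 and 11.3 CPM in DS, 21.6 and 18.6 in L6, 27.0 and 26.0 in L26 and 12.5 and 16.6 in L57. It was higher in L6 than in DS by 0.87 ± 0.28 (adjusted p = 0.0096), and by 0.70 to 0.87 over the 5 scalings, all called, but not without DS replicate 1 (0.80, adjusted p = 0.086) or without L6 replicate 1 (0.77, adjusted p = 0.091). It was lower in L57 than in L26 by -0.84 ± 0.30 (adjusted p = 0.040), which only the trended offsets called and which was lost when any library of those stages was left out (adjusted p up to 0.26). The other ACRs of ELF3, in an intron at 16.8 to 28.1 CPM and downstream inside the gene ALPHA-VPE at 17.1 to 28.7 CPM, were not called in any comparison.

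**Figure D5:**
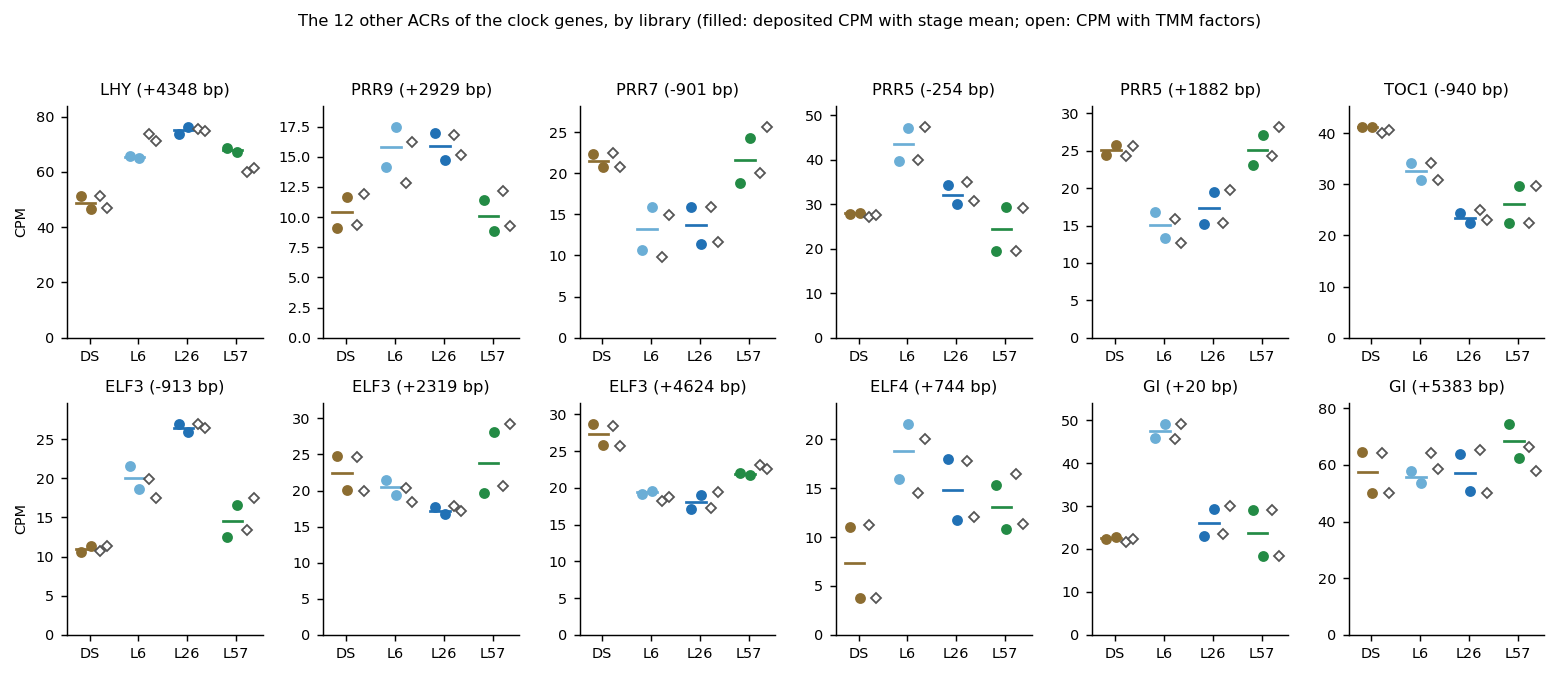
CPM of the 12 other clock gene ACRs in the 8 libraries, as filled points for the deposited CPM with the stage mean as a line and open points for TMM factors. The ACR at the start of GI (20 bp) stands at 45.9 and 49.1 CPM in L6 and between 18.4 and 29.3 in all other libraries, and the ELF3 ACR at -913 bp is highest in L26.

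GI had 3 ACRs. Its distal promoter ACR (at -921 bp, chr1:8060559-8061346), whose sequence is printed, was at 200.7 and 187.7 CPM in DS, 285.2 and 292.3 in L6, 281.9 and 285.7 in L26 and 222.6 and 292.1 in L57. With the deposited scaling all libraries in the light were above both of DS, and L6 was higher than DS by 0.57 ± 0.08 (adjusted p = 4.5e-09), from 0.37 to 0.73 over the 5 scalings, with the call kept in each of the 8 fits that left out 1 library. What followed depended on the scaling. With trended offsets L26 differed from L6 by -0.02 (interval -0.20 to 0.15), and with TMM factors by -0.57 (adjusted p = 3.6e-06). L57 was higher than DS by 0.42 ± 0.10 (adjusted p = 2.0e-04) with trended offsets and lower by -0.37 (adjusted p = 0.0072) with TMM factors, so no direction is given, and without L57 replicate 2 the first value was 0.24 (adjusted p = 0.16).

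The ACR at the start of GI (at 20 bp, in the 5' UTR, chr1:8061600-8061902) was at 22.2 and 22.8 CPM in DS, 45.9 and 49.1 in L6, 23.0 and 29.3 in L26 and 29.0 and 18.4 in L57. Both L6 libraries stood above all others with no overlap. L6 was higher than DS by 1.08 ± 0.20 (adjusted p = 3.2e-06), from 0.81 to 1.12 over the 5 scalings and in each of the 8 fits that left out 1 library. L26 was lower than L6 by -0.85 ± 0.21 (adjusted p = 0.0015), from -0.85 to -0.72 over the 5 scalings, and by -0.68 without L26 replicate 1 (adjusted p = 0.054). L57 differed from DS by 0.05 (interval -0.47 to 0.57). The ACR in a coding exon of GI, at 50.2 to 74.5 CPM, was not called in any comparison.

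The evening element did not go with 1 course. Of the 6 ACRs that hold it, GI at -921 bp and PRR5 at -254 bp were called higher in L6 than in DS, ELF4 at -123 bp was called lower, and LUX (0.09, interval -0.09 to 0.28), PRR5 at -1316 bp (0.20, interval -0.03 to 0.43) and TOC1 (-0.20, interval -0.49 to 0.08) were not called with trended offsets. PRR5 at -1316 bp was called higher with TMM factors (0.35, adjusted p = 0.020) and DESeq2 size factors (0.37, adjusted p = 0.014), and was at -0.10 with GC-corrected offsets (adjusted p = 0.59). LUX was called with DESeq2 size factors alone (0.26, adjusted p = 0.046), and TOC1 with GC-corrected offsets alone. The stage of the highest mean CPM was DS for 7 of the 22 ACRs, L6 for 7, L26 for 4 and L57 for 4, while among all ACRs DS held 29.1%, L6 24.7%, L26 20.7% and L57 25.5%. With TMM factors, LHY at -234 bp, PRR7 at -226 bp and PRR5 at -1316 bp were highest at L6 and PRR5 at 1882 bp at L57 instead.

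Likeness of the leading ACRs was measured as the root mean square difference of centred log2(CPM + 1) over the 8 libraries, among 40 other clock genes with an ACR. It describes the course and not a shared function. Only the deposited CPM were used, and some courses depend on the scaling. The log2 range over the stages at LUX was 0.33 with them and 1.05 with TMM factors, while PRR5 had 0.45 and 0.44. The ranges of LHY, CCA1, PRR9 and TOC1 in the deposited CPM were 0.20 to 0.23, so nearness there may be a shared flat course. PRR9 was nearest to LUX (0.128), GI to PRMT5 (0.106), CCA1 to LNK4 (0.106), PRR7 to CKB3 (0.100) and LUX to RVE1 (0.121), whose leading ACR lies downstream of it, 26 bp from the start of APG5 and inside that gene. ELF4 stood farthest from its nearest gene, RVE4 (0.215). The nearest genes of the others were LIP1 for LHY (0.159), LKP2 for ELF3 (0.134), CHE/TCP21 for PRR5 (0.141) and LNK3 for TOC1 (0.138).

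A list of 35 further clock genes, among them the RVE activators, the LNK coactivators, the F-box proteins of the ZTL family and the output genes GRP7 and GRP8, served as a comparison. Of these 31 had an ACR. By their leading ACR, 19 of 31 changed over the stages, 4 were called higher and 3 lower in L6 versus DS, 4 and 2 in L26 versus L6, 1 and 1 in L57 versus L26, and 4 and 6 in L57 versus DS. The shares of all ACRs called, in the same order, were 56.6% over the stages, 17.6% and 14.3%, 8.71% and 7.91%, 7.53% and 6.19%, and 17% and 12.2%. Their median log2 fold changes were 0.07, -0.03, -0.23 and -0.06, beside -0.01, -0.01, -0.02 and -0.01 over all ACRs. The evening element was within 150 bp of the summit in 4 of these 31 (BOA, ELF4-L4, GRP8 and RVE7), beside 5 of the 10 leading ACRs of the clock genes described here.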

How the data were processed

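Counts and CPM came from 2 tables of 30223 ACRs and 8 libraries. The deposited count table gives, in counts, the reads of each ACR and library. The second table holds CPM, read counts that the authors scaled to library size with abundance-trended offsets of the R package csaw. Per the submitters' processing notes and methods, fastp 0.23.4 trimmed the reads, Bowtie2 2.4.4 aligned them to TAIR10, filtering used SAMtools 1.14, duplicates were removed with Genrich 0.6.1 and peaks called with MACS3 3.0.0b3. Intervals were handled in bedtools 2.30.0 and R 4.3.1, and the peaks kept in both replicates were merged over stages by the authors, with the summit in the peak file. Every column had its sample, and 0 columns were left out.

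A loess fit (limma 3.58.1, span 0.3) gave the offsets again from the counts, and differed from those implied by the deposited CPM by at most 1.9e-12 on the log scale. Counts of the 4 stages entered 1 fit in R 4.3.3 without a count filter, tested by edgeR 4.0.16 (quasi-likelihood). For each comparison p-values were adjusted across the 30223 ACRs after Benjamini and Hochberg, and called under 0.05. The fit was tested on simulated data first. The SE of a log2 fold change is its size divided by the square root of F, and 95% intervals use a t quantile with 194.8 degrees of freedom. The comparisons are not independent, since a stage enters several of them with the same libraries. Alternatives were TMM factors, DESeq2 1.42.0 size factors, library totals (total counts), GC-corrected trended offsets, the Wald test of DESeq2 (a likelihood ratio test over the 4 stages), the earlier form of the edgeR test, a count filter, the 2 stages alone, a replicate block and leaving out each library. Values with TMM factors stand beside those with trended offsets in the text, since 8 of the 10 leading ACRs lie in the top 10% of mean CPM.

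The text names ACRs by the distance of the summit from the gene start. Gene bounds, exons and sequences came from RefSeq's annotation of TAIR10.1, whose nuclear chromosomes are those of TAIR10. An ACR was placed by its summit, and 2 ACRs of the whole table run past a chromosome end. The member genes and the lists of further clock genes and of marker genes were chosen with earlier results of these data known. Values in each library are given for the leading ACR of each gene and for ACRs that changed over the stages by at least 1 on the log2 scale in a comparison. Of the other member ACRs, those called in a comparison were added after their values were seen, and the rest are given by range. Up to 6 of the further clock genes are named, by smallest p over the stages.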

Additional observations from a re-analysis of the deposited data

How the results depend on the processing

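For the 12 ACRs named by the rule, 48 log2 fold changes were recomputed in 816 alternatives. Of these, 661 kept sign and side of the threshold, 61 changed sign without a call on either side, 22 lost a call, 59 gained one, and 13 changed sign with a call. Of the 11 calls at these ACRs, 3 held in all alternatives (GI at -921 bp and GI at 20 bp in L6 versus DS, ELF4 at -123 bp in L57 versus DS), and the 8 calls at other clock ACRs, of 19 in all, were each lost in a fit without 1 library. In L57 versus DS the sign of CCA1 turned to -0.51 with TMM factors, -0.49 with DESeq2 size factors, -0.41 with total counts and -0.50 with the Wald test. In the same order PRR9 turned to -0.48, -0.46, -0.38 and -0.46, and GI at -921 bp to -0.37, -0.35, -0.27 and -0.35. PRR9 in L6 versus DS turned to -0.38 with GC-corrected offsets. TMM factors, DESeq2 size factors and total counts differ from trended offsets by construction in how they treat abundant ACRs. GC-corrected offsets add a trend on GC content to the trended offsets. The count of called clock ACRs in L6 versus DS (9) was 4 with the DESeq2 Wald test and 4 to 10 when 1 library was left out, while the share of all ACRs went from 32% to 14.8% and to between 19.3% and 33.1%. In L26 versus L6 (2) it was 8 with TMM factors, 8 with DESeq2 size factors, 7 with total counts, 7 with the Wald test and 1 to 2 with a library left out, beside 16.6% of all ACRs and then 19.6%, 19.6%, 20.2%, 9.27% and 8.93% to 16.2%. In L57 versus L26 (2) it was 4 with TMM factors, 0 with the 2 stages alone and 0 to 2 with a library left out, beside 13.7% of all ACRs and then 15.5%, 12.6% and 5.85% to 13.5%. In L57 versus DS (6) it was 3 to 6 with a library left out (29.2%, then 18.6% to 29.7%). The count over the 4 stages (14) was 11 to 13 with a library left out (56.6%, then 47.3% to 54.2%). In the whole ACR in place of 150 bp around the summit, the CCA1-binding site was in 3 clock ACRs (7.33% of all ACRs). The LUX site was in 11 (29.6% of all), the telo-box in 2 (8.87%) and the GT1 site in 9 (26.3%). The evening element was in 7 (6.34%), the G-box in 6 (16.5%) and the ABRE in 12 (15.2%). TCP sites were in 12 (41.1%) and HUD sites in 4 (29.1%). The count filter removed 0 ACRs. With the summit at most 500 bp upstream of the start and not past the end of the gene, 14 ACRs remained, without GI at -921 bp. Of the 14, 5 were called in L6 versus DS (32% of all ACRs) and 2 in L26 versus L6 (16.6%). The calls were 0 in L57 versus L26 (13.7%), 3 in L57 versus DS (29.2%) and 8 over the stages (56.6%). The libraries of different stages that share a number did not deviate together (r from -0.04 to 0.02 across ACRs), so the replicate number was not taken as a pairing, and the replicate block gave 9, 2, 2, 6 and 14 calls, the counts given above. Depth fell from DS to L57, so the last stages give the widest intervals.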

Other observations

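Among the 31 further clock genes with an ACR, the 6 with the smallest p over the stages were LWD1, LWD2, TIC, RVE8, RVE7 and RVE4. RVE8, an activator that binds the evening element, had an ACR in its 5' UTR at 102.2 and 107.9 CPM in DS, 69.6 and 81.8 in L6, 130.9 and 128.9 in L26 and 104.3 and 107.8 in L57. The L26 libraries stood above all others. It was higher in L26 than in L6 by 0.78 ± 0.13 (adjusted p = 3.6e-07), and by 0.47 to 0.78 over the 5 scalings. The call was kept in each of the 8 fits without 1 library. In that step 0 of the 22 ACRs of the 10 clock genes were called higher. With so few ACRs this is not set apart from the 8.71% of all ACRs. RVE4, a close relative of RVE8, was at 85.5 and 70.0 CPM in DS, 52.9 and 53.0 in L6, 50.7 and 62.9 in L26 and 43.6 and 47.5 in L57. Like the ELF4 promoter it was lower in L57 than in DS, by -0.76 ± 0.18 (adjusted p = 2.3e-04), and from -0.89 to -0.70 over the 5 scalings. The summit of this RVE4 ACR is 129 bp from the start of AT5G02830, and the ACR may serve both genes.

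RVE7 was at 37.4 and 46.4 CPM in DS, 55.8 and 64.5 in L6, 76.0 and 73.6 in L26 and 60.9 and 65.9 in L57. It was higher in L57 than in DS by 0.60 ± 0.18 (adjusted p = 0.0058), and by 0.46 to 0.60 over the 5 scalings. The call was kept in only 6 of the 8 fits that left out 1 library. Without DS replicate 1, where it was lost, the difference was 0.45. The ACR upstream of TIC, at 210.9 to 244.0 CPM in DS and 301.2 to 339.6 in L57, shared the dependence on scaling of GI, with L57 versus DS at 0.49 (adjusted p = 3.8e-06) with trended offsets and as low as -0.36 over the other scalings, so no direction is given. The leading ACRs of LWD1 and LWD2 lay 50 bp from the start of GAPA-2 and 6 bp from that of GAPA, which are photosynthetic genes, and the second is also in the green seedling list. They were higher in L57 than in DS by 1.48 ± 0.22 (adjusted p = 9.7e-09) and 1.03 ± 0.18 (adjusted p = 1.2e-06). Over the 5 scalings the differences were 1.40 to 1.61 and 0.97 to 1.07.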
